A study of Mus musculus with 18 samples.

Results

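Ependymal nuclei were picked out of the hippocampal (Hip) libraries by a UMI rule, where a UMI (unique molecular identifier) is 1 counted RNA molecule. Members carried at least 6 UMIs over Ccdc153, Tmem212, Foxj1, Dnah12 and Cfap299 together, and at least 2 times as many of these as of Slc17a7, Gad1, Gad2, Mog, Mag, Csf1r, Flt1, Folr1 and Kl, genes of neurons, oligodendrocytes, microglia, endothelium and choroid plexus. The rule held for 434 of the 71398 Hip nuclei that had at least 200 genes and at most 10% of their UMIs in mitochondrial genes, a share of 0.608%. The series holds 138000 such nuclei in 18 libraries of 2 brain regions.

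The Hip nuclei came from 9 Kun Ming mice, all 8 weeks old, with 1 library per mouse. Of these mice, 3 were germ-free (GF, mice 5, 6 and 7), 3 were specific pathogen-free (SPF, mice 30, 31 and 32) and 3 were colonized germ-free (CGF, mice 17, 18 and 19), which had been GF and were then housed with SPF mice. Nuclei were purified from frozen tissue on a sucrose gradient, so the counts are mainly of nuclear RNA. A Hip library held 49067853 to 63217083 UMIs. The mitochondrial share of UMIs was higher in every GF library than in any SPF or CGF library, and SPF and CGF overlapped. Outside the members it was 0.447% to 0.870% in GF libraries, 0.112% to 0.411% in SPF libraries and 0.0675% to 0.198% in CGF libraries, and the filters removed 189 to 237 nuclei per library in GF but 17 to 60 in the other groups.

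Ependymal cells are the ciliated epithelium that lines the brain ventricles, on which the hippocampus borders. Each carries a tuft of motile cilia, whose beat moves cerebrospinal fluid along the wall. A motile cilium is built on doublet microtubules around a central pair, with dynein arms as motors, radial spokes and nexin links as regulators, and intraflagellar transport as the supply line, under the transcription factor Foxj1 and factors of the Rfx family.

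The number of members differed several-fold among mice of 1 group. GF mice gave 14, 87 and 20 members (mice 5, 6 and 7), SPF mice 21, 46 and 103 (mice 30, 31 and 32) and CGF mice 47, 28 and 68 (mice 17, 18 and 19). As a share of the kept nuclei, that was 0.172%, 0.993% and 0.232% in GF. The shares were 0.300%, 0.623% and 1.26% in SPF, and 0.728%, 0.319% and 0.840% in CGF. The ranges of the 3 groups overlapped, and the highest library was 7.32 times the lowest. Group means were 0.466% ± 0.457 (GF), 0.728% ± 0.489 (SPF) and 0.629% ± 0.274 (CGF; SD, n = 3 mice each), and an exact permutation test over the 3 groups found no difference (two-sided, p = 0.761, adjusted p = 0.861 over the 4 measures tested per library). Between 2 groups of 3 mice the smallest p an exact test allows is 0.1, and the GF and SPF shares gave p = 0.5. A count of 14 nuclei leaves a 95% exact binomial interval of 0.0942% to 0.289%, and such intervals cover counting error only.

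Choroid plexus nuclei, taken by the same kind of rule on Folr1, Kl, Clic6, Otx2 and Kcne2, numbered 0, 172 and 60 in GF mice 5, 6 and 7, 32, 55 and 188 in SPF mice 30, 31 and 32, and 24, 0 and 99 in CGF mice 17, 18 and 19. The libraries with most members in GF, SPF and CGF were thus also those with most choroid plexus nuclei in their group. How much ventricular wall each dissection took is not recorded, and its part in the member counts was not tested.

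**Figure D1:**
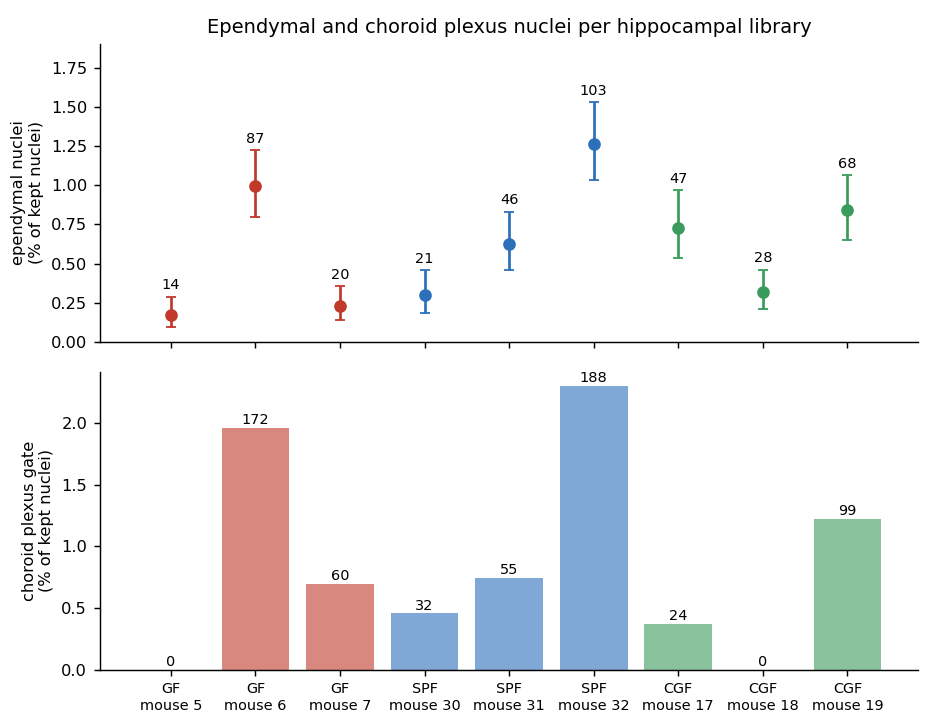
Upper plot: members as a percentage of the kept nuclei of each Hip library (points, with 95% exact binomial intervals and the number of members above). Lower plot: percentage of nuclei in the choroid plexus gate, with their number above each bar. The 3 groups overlap, with GF between 0.172% and 0.993%, SPF between 0.300% and 1.26% and CGF between 0.319% and 0.840%.

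Members were small nuclei in RNA terms. Their median was 3184 UMIs (quartiles 2316 and 4629) and 1955 genes, against 5877 UMIs in all other nuclei and 2901 in 6615 astrocytes gated in the same way on Aqp4, Gja1, Slc1a3, Slc39a12 and Slc7a10. Per library the median lay between 2469 and 4197 UMIs and between 1658 and 2381 genes. The groups did not differ, with 3667 ± 829 UMIs in GF, 3311 ± 746 in SPF and 3248 ± 696 in CGF (SD, n = 3; exact permutation test, p = 0.764) and 2083 ± 342, 2026 ± 333 and 1949 ± 253 genes (p = 0.861). No barcode of a member occurred among the members of another library. Doublets were not called here.

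The genes that chose the members are given as a description only. Cfap299, a cilia- and flagella-associated protein gene that the files list under an older symbol, was found in 99.8% of members and stood at 2529 counts per 1000000 UMIs (CPM) in their summed counts, against 8.23 in all other Hip nuclei. Dnah12, an inner-arm dynein heavy chain, was found in 94.0% of members, at 1522 CPM against 1.75. Tmem212, a membrane protein gene used as an ependymal marker, was found in 89.2%, at 1010 CPM against 1.32. Ccdc153 was found in 42.2%, at 143 CPM against 0.757. Foxj1, the switch for motile cilia, was the sparsest, found in 27.6% at 78.6 CPM against 1.31. Without Cfap299 in the sum, 319 nuclei passed.

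The sum over the 5 genes had a median of 18 UMIs in members (quartiles 11 and 27) and a maximum of 236. Just inside the limit, 72 members had sums of 6 to 9, and just outside it 37 nuclei had sums of 4 or 5 and passed the limit on opposing genes. A further 34 nuclei had 6 UMIs or more and failed that limit. Of the opposing genes, 118 members (27.2%) had no UMI at all. Slc17a7, of excitatory neurons, had a UMI in 46.5% of members and in 41.9% of gated astrocytes, which should lack it, at median depths of 3184 and 2901 UMIs.

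The label was checked on 133 ciliary genes outside the rule, of which 4 had no UMI in members. They took a median of 3.23% of the UMIs of a member (quartiles 2.62% and 3.79%). The median was 0.363% in gated astrocytes, 1.42% in the 630 gated choroid plexus nuclei, whose epithelium is ciliated too, and 0.333% in all other nuclei. Of the 133 genes, 93 were higher in members than in the other nuclei in each of the 9 libraries, 102 were at least 2-fold higher and 63 at least 10-fold higher, with a median ratio of 7.60 against 1.20 over the 18909 genes detected in members. Among all genes with at least 100 CPM in members, 756 of 2145 were higher in each of the 9 libraries. The ciliary lists also hold genes below that level. The ciliary genes thus went with the label, as a description of nuclei that had been chosen by 5 genes of the same programme.

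A few members went against it. In 22 of the 434, the ciliary share was below 1%, and these nuclei were large, with a median of 11124 UMIs against 3083 in the other 412. They were 4 of 87 in GF mouse 6, 3 of 20 in GF mouse 7, 5 of 21 in SPF mouse 30, 7 of 103 in SPF mouse 32, 2 of 47 in CGF mouse 17 and 1 of 28 in CGF mouse 18. They held 58.1% of all member UMIs in SPF mouse 30, 34.4% in GF mouse 7 and 21.1% in CGF mouse 17, but 0% to 12.7% in the other 6 libraries. The calls between groups below are therefore given with and without them. The limit of 1% was chosen after the data were seen.

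**Figure D2:**
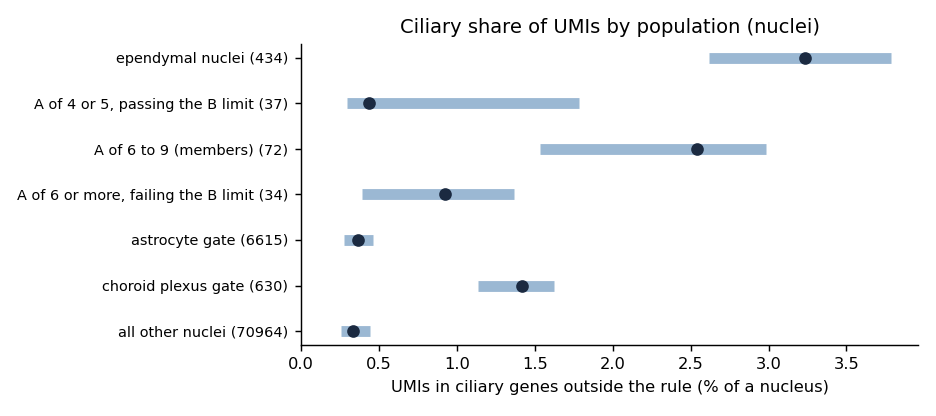
Percentage of a nucleus's UMIs in the 133 ciliary genes outside the rule, by population (dot, median; bar, lower to upper quartile; number of nuclei in brackets; A is the UMI sum of the 5 rule genes, B that of the 9 opposing genes). Members sit at 3.23%, nuclei just under the limit (A of 4 or 5) at 0.436%, and astrocytes at 0.363%.

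The motors of the cilium were well represented. Of 19 genes of the axonemal dynein arms, 17 were higher in members in every library. Dnah11, a heavy chain of the outer arm, was at 926 CPM against 6.85 in the other nuclei, and Dnah5 and Dnah9, which build the same arm, were at 436 against 13.3 and 909 against 119. Of the inner-arm heavy chains, Dnah6 was at 946 CPM, 52.5 times its level in the other nuclei, Dnah3 at 470 against 3.64 and Dnah10 at 391 against 1.39. Dnah7a was at 574 against 10.7, but its reads are uncertain, since Dnah7a, Dnah7b and Dnah7c are near-identical copies. The exceptions were Dnah8, at 12.7 against 24.1, and Dnah17, at 2.54 against 3.04, which are the outer-arm chains known from sperm tails.

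The factors that fold and dock these motors followed. Armc4, which docks the outer arm, was found in 75.1% of members at 470 CPM against 2.90, and Ccdc114, of the same docking complex, was at 311 against 3.92. Dnaaf3, which assembles dyneins in the cytoplasm, was at 178 against 0.790. Of the 12 genes of this group 8 were higher in every library. Dnaaf2 and Ccdc103 had no UMI in any Hip nucleus, so their level in members cannot be judged.

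The central pair, which regulates the beat, was marked by Spag16 (1651 CPM against 20.1), Cfap54 (1332 against 166), Hydin (875 against 4.28), Spef2 (874 against 13.2) and Spag17 (669 against 3.24), and 11 of the 12 genes found were higher in all 9 libraries. Hydin, whose loss in mice causes hydrocephalus, had a UMI in 86.9% of members, 33.8% of choroid plexus nuclei and 1.33% of astrocytes.

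Radial spokes and nexin links had 16 of 19 genes higher in every library. Rsph10b and Rsph1 of the spokes were at 314 CPM against 15.9 and 184 against 10.3, Drc1 and Iqcg of the nexin-dynein complex at 283 against 20.4 and 273 against 5.38, and Ccdc39 and Ccdc40, the ruler that sets the spacing along the doublet, at 182 against 26.1 and 112 against 2.45. Rsph6a had no UMI in members. Gas8 had none in any Hip nucleus, which cannot tell absent RNA from RNA that the counting missed. Among the proteins of the doublets, 13 of 17 genes were higher in every library, with Cfap44 at 794 against 16.9, Cfap43 at 612 against 11.8, Enkur at 245 against 2.82 and Tekt1 at 110 against 1.78.

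Intraflagellar transport, which neurons and astrocytes also use for their primary cilium, was raised less. None of its 32 genes reached 10-fold, 21 were at least 2-fold higher, and their summed level was 3166 CPM in members against 1212 in the other nuclei, 2.61 times as much. The axonemal dynein arms, on the same scale, stood at 7311 against 333, or 21.9 times. Dync2h1, the motor chain of the return path, was at 324 against 116, Ift88 at 245 against 44.7 and Bbs9 at 237 against 63.6.

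Of 22 regulators of multiciliation and centriole amplification, 10 were higher in every library. Among all genes with at least 100 CPM in members, 756 of 2145 were. The 22 regulators summed to 2437 CPM in members and 1169 in the other nuclei, and at 3157 their sum was higher in the choroid plexus gate. Rfx2 was at 263 CPM against 9.58 and Rfx3 at 1065 against 664, and Trp73 and Myb, which act early in multiciliation, were at 88.8 against 3.42 and 75.6 against 0.844. Deup1, of the deuterosome that makes the many centrioles, was at 28.9 against 1.13. Mcidas, Ccno and Foxn4, which act while the centrioles are being made, had 1 UMI or more in at most 0.691% of members.

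**Figure D3:**
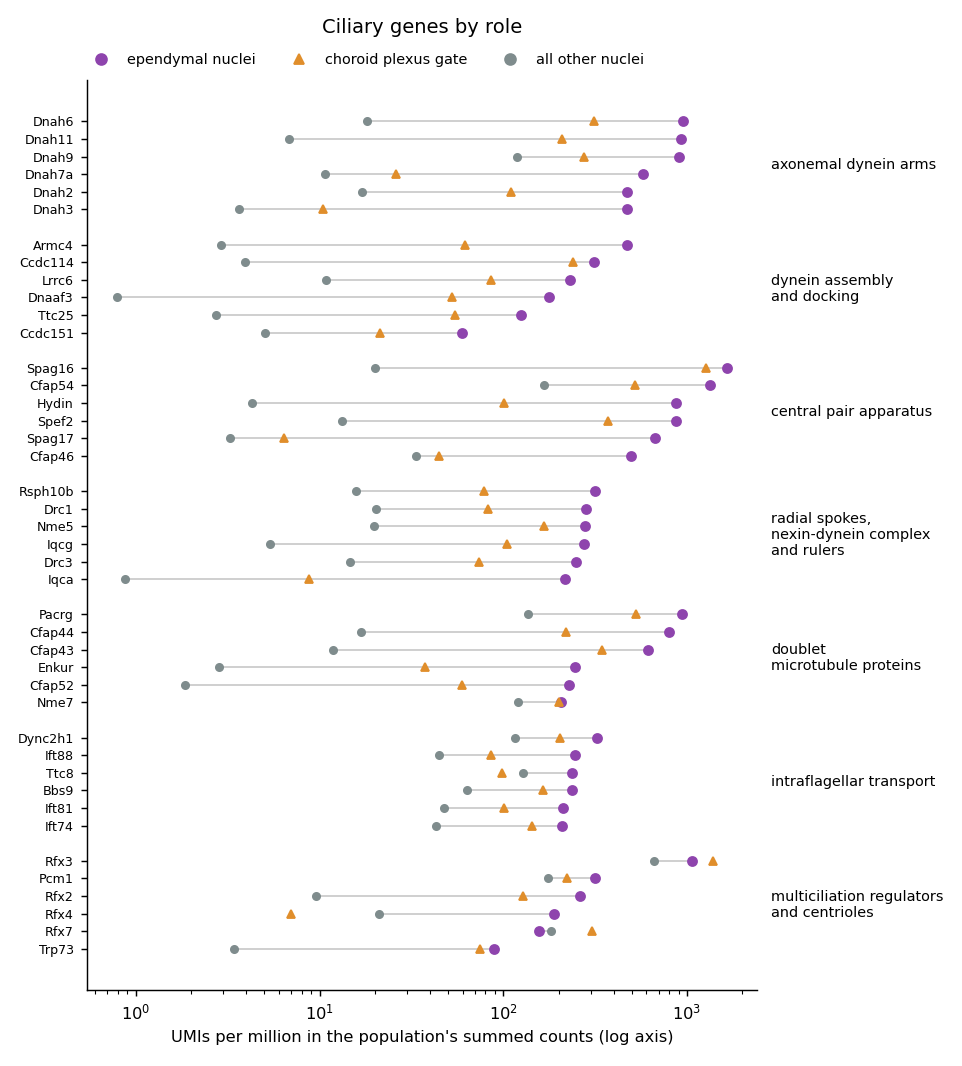
Level of the 6 genes with the highest CPM of each ciliary group (log axis, CPM of the summed counts) in members, in the choroid plexus gate and in all other Hip nuclei. Against all other nuclei, dynein arm, central pair, spoke and doublet genes sit far to the right in members. Summed over these lists, members had 7311, 7048, 2613 and 3760 CPM and the choroid plexus gate 1941, 2888, 1157 and 1731. Intraflagellar transport genes are closer together, and Rfx7 is not higher in members.

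Outside the rule, the genes with the largest ratio to the other nuclei (among those with at least 100 CPM and higher in all 9 libraries) were mostly outside the ciliary lists, which do not hold every ciliary gene: 0 of the first 15 and 13 of the first 60 were in them. Gm10714 led, at 701 CPM in members against 0.428 in the other nuclei and 315 to 914 over the 9 libraries. GENCODE annotates it as an antisense RNA on mouse chromosome 2 from 174125038 to 174183918 (GRCm38, minus strand), and whether strand was used in the counting is not given in the sources used here, so an overlapping gene on the other strand cannot be told apart. Ccdc180 was at 239 CPM against 0.153, Zfp474 at 202 against 0.147, Unc5cl at 449 against 0.442 and Crocc2, a relative of the ciliary rootlet protein, at 227 against 0.261. Cdhr3, a cadherin of ciliated airway cells, was at 427 against 0.693, and Ttc29 at 388 against 0.638. The other 8 were 4930567H12Rik, Gm12695, Fam216b, Gm867, Ankrd66, Frmpd2, Lrrc36 and C230072F16Rik, all at least 453 times higher.

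Rfx factors are known to bind the motif GTTGCC, and the looser form GGNAAC, before ciliary genes. RefSeq promoters (GRCm38.p6, 250 bases before to 50 after the gene's start) were found for 110 of the 133 ciliary genes and 48 of the 60 with the largest ratio. GTTGCC, on either strand, was in 51 of the 110 (46.4%) and 20 of the 48 (41.7%), and in 3821 of all 27025 promoters (14.1%). By group it was in 9 of 14 doublet genes (64.3%), 13 of 27 of intraflagellar transport (48.1%) and 5 of 17 of the dynein arms (29.4%), against 9 of 79 oxidative phosphorylation genes (11.4%), 6 of 65 of ribosomal proteins (9.23%), 4 of 15 of planar polarity and junctions (26.7%) and 3 of 13 glial genes (23.1%). GGNAAC, which every GTTGCC also matches on the other strand, was in 86 of the 110 (78.2%) and in 48.8% of all promoters. TGTTTAC, a forkhead site of the kind Foxj1 binds, was in 3 of the 110 (2.73%), in 5 of the 48 (10.4%) and in 4.05% of all promoters. A match is a run of letters and no shown site.

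The 120 bases before the start are shown for a gene with GTTGCC just before its start (Ccdc180), a gene with several matches (Cdhr3), a rule gene with the looser form only (Tmem212) and a rule gene without a match in this stretch (Dnah12). Capitals mark GTTGCC or GGNAAC on either strand, and each sequence reads 5′ to 3′ on the gene's strand. They lie at chr4:45890183-45890302 (plus), chr12:33092876-33092995 (minus), chr3:27896369-27896488 (minus) and chr14:26691434-26691553 (plus) of GRCm38.p6.
Ccdc180: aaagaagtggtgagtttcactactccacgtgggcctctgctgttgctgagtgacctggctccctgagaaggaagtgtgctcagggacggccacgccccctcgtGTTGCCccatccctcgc
Cdhr3: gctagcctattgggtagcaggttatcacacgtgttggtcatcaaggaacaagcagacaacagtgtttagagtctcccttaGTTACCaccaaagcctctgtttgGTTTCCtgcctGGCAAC
Tmem212: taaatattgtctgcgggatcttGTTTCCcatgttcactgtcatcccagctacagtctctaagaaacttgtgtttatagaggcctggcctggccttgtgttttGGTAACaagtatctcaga
Dnah12: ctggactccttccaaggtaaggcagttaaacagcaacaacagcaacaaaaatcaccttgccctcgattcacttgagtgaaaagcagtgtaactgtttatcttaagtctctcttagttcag
In Ccdc180 the motif began 17 bases before the start, in Cdhr3 the nearest began 6 bases before it, and in Tmem212 18 bases before it. For Dnah12, GENCODE puts the gene's start at chr14:26693274 (GRCm38), downstream of the stretch shown. The lack of a match there holds for the RefSeq start only.

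Markers of other cell types are given as a description, since Slc17a7, Gad1, Gad2, Mog, Mag, Csf1r and Flt1 stand in their lists and counted against membership, which lowers these sums. The 8 astrocyte markers summed to 961 CPM, against 12570 in gated astrocytes, with Slc1a2, the main glutamate transporter of astrocytes, at 397 against 4686 and Gpc5 at 222 against 6779. The 7 oligodendrocyte markers summed to 481 CPM (519 in astrocytes), the 7 excitatory neuron markers to 1849 (1954 in astrocytes), and the 5 tanycyte markers to 112, against 106 in the other nuclei, with Rax at 0 and Crym at 52.8 against 54.4. The 7 microglia markers summed to 183 CPM in members against 106 in the other nuclei, between 72.3 and 539 by library, and of these Cx3cr1, at 96.9 against 20.3, was the 1 gene higher in all 9 libraries. Of 20 glial genes that ependymal cells share with astrocytes, 12 were higher than in all other nuclei in every library. Sox9 was at 108 CPM against 8.88, Aqp4, the water channel, at 185 against 16.8, Vim, an intermediate filament, at 50.2 against 5.05, and Cd24a, a surface protein of ependymal cells, at 35.5 against 1.09, while astrocytes had Sox9 at 61.5, Aqp4 at 168, Vim at 10.0 and Cd24a at 2.40. The 20 genes summed to 6210 CPM in members and 10336 in astrocytes, where Slc1a3, a glutamate transporter, was at 2229 against 240 in members. The astrocytes had been gated on Slc1a3, Aqp4 and Gja1 of this list, which raises their values. Of 21 genes of planar polarity and junctions, 6 were higher in every library and 4 at least 2-fold, and their sum was lower in members (3743 CPM against 4802). The planar polarity genes Celsr1, Vangl1 and Fzd6 were among the 4, at 103 CPM against 2.79, 71.5 against 4.74 and 34.0 against 5.22. Beside the 12 glial and the 6 polarity and junction genes, 756 of 2145 genes with at least 100 CPM in members were higher in every library.

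Some choroid plexus genes were higher in members than in the other nuclei. Folr1, the folate receptor, which counted against membership, was at 62.4 CPM in members against 4.61 in the other nuclei and was found in 22.6% of members, 1.63% of astrocytes and 60.3% of choroid plexus nuclei, which were gated on it. Otx2 was found in 13.4% of members and 1.16% of astrocytes. Kl, which counted against membership too, was at 11.2 CPM against 13.5. Ttr, the abundant choroid plexus RNA for transthyretin, had similar levels in members and other nuclei of 1 library and differed widely between libraries. It gave 13.3 UMIs per member and 15.9 per other nucleus in GF mouse 6, and 0.0714 and 0.0437 in CGF mouse 18.

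Mitochondrially encoded RNA was also higher in members. The 13 genes summed to 23292 CPM in members, 3411 in all other nuclei, 3979 in astrocytes and 6878 in the choroid plexus gate, so members had 6.83 times the level of the rest, and 12 of the 13 were higher in each of the 9 libraries. The share was 3.74%, 5.54% and 3.25% of member UMIs in GF mice 5, 6 and 7, 1.65%, 0.751% and 2.41% in SPF mice 30, 31 and 32, and 0.322%, 1.39% and 0.704% in CGF mice 17, 18 and 19. All 3 GF libraries lay above the others, as they did in the other nuclei.

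The question of the study's design was how the absence of a microbiota, and its restoration, changes RNA in each cell type. For this the UMIs of the members of each mouse were summed (68666 to 566056 per mouse) and compared with edgeR's quasi-likelihood test in 1 fit of the 9 mice over 4714 genes, p-values being adjusted by Benjamini-Hochberg and called under 0.05. Values by mouse are CPM after TMM scaling. By the study's methods GF and CGF mice lived in isolators, CGF mice with an SPF mouse in the cage, and SPF mice were raised apart, so housing and group cannot be told apart. The labels tie no mice to litters. In summed RNA, fewer molecules per nucleus and fewer nuclei with the gene cannot be told apart.

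No gene of the ciliary lists, which do not hold every ciliary gene, passed the test between groups. Their share of the summed member UMIs was 3.02%, 2.87% and 2.06% in GF mice 5, 6 and 7, 1.74%, 3.30% and 2.77% in SPF mice 30, 31 and 32 and 3.04%, 3.42% and 3.04% in CGF mice 17, 18 and 19. The means were 2.65% ± 0.517, 2.60% ± 0.795 and 3.17% ± 0.219 (SD, n = 3, exact permutation test over the 3 groups, p = 0.404, adjusted p = 0.861). The lowest values were those of SPF mouse 30 and GF mouse 7. Members with a low ciliary share held the largest parts of the UMIs there, which lowers the summed share by definition. Of the 92 ciliary genes tested, 0 passed the edgeR threshold in any of the 3 comparisons, with 9, 3 and 8 at an unadjusted p under 0.05 for GF against SPF, CGF against SPF and GF against CGF, beside 501, 217 and 474 of all 4714 genes. Their median log2 fold change was 0.04, 0.18 and -0.08, and over all genes tested it was -0.03, -0.04 and 0.01. CGF lay above SPF without overlap for 19 of the 92 and below for 1, against 6.17% and 5.88% of all genes tested, and GF lay below CGF for 15 and above for 2, against 7.21% and 8.57%. Without the 22 members, 0 of the 86 ciliary genes tested passed, with medians of 0.02, 0.02 and 0.02. The 22 were left out for a low share of these same genes, so this fit cannot decide whether the ciliary level differed. Hydin, for example, was at 1179, 1006 and 676 CPM in GF, 753, 1489 and 1035 in SPF and 1077, 1295 and 991 in CGF, and Dnah11 at 953, 998 and 855, 726, 930 and 1108, and 1408, 1454 and 1214. Dnah9 lay between 979 and 1230 CPM in all 9 mice. On simulated counts in this design the test recovered 75% of genes changed 4-fold and 4% of those changed 2-fold, so a 2-fold change of a ciliary gene was mostly not detectable at this depth.

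GF members differed from SPF members in 4 genes, 3 higher and 1 lower, which is 0.0849% of the genes tested. Without the 22 members of low ciliary share, the same test gave 27 higher and 12 lower of 3704 genes (1.05%), and all 4 genes were among them. The strongest rise was that of Apoe, which carries lipids between brain cells and sits on chromosome 7 from 19696109 to 19699188 (GRCm38).

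Apoe was at 7627, 7778 and 4566 CPM in GF mice 5, 6 and 7, at 626, 1165 and 1347 in SPF mice 30, 31 and 32 and at 1127, 1295 and 1492 in CGF mice 17, 18 and 19. The GF mice lay above all others with no overlap, and the log2 fold change to SPF was 2.66 ± 0.40 (SE, adjusted p = 0.0232 by edgeR). CGF members, at a log2 fold change of 0.31 ± 0.38 to SPF, did not pass (adjusted p = 0.975). Against CGF the GF value was higher by 2.35 ± 0.39 and missed the threshold with all members (adjusted p = 0.101), but passed without those of low ciliary share (2.42 ± 0.24, adjusted p = 0.000111).

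Clu, a secreted chaperone of the same glial group, was at 1231, 1180 and 683 CPM in GF, 191, 227 and 275 in SPF and 256, 244 and 377 in CGF. Again the GF mice lay above the rest, with a log2 fold change to SPF of 2.13 ± 0.33 (adjusted p = 0.0232). In gated astrocytes the log2 fold changes of GF against SPF were 2.40 ± 0.11 for Apoe and 1.97 ± 0.11 for Clu, and the difference between members and astrocytes was 0.21 ± 0.42 and 0.06 ± 0.38 (adjusted p = 1 for both by edgeR). Outside the members as a whole, Apoe was at 338.5 to 579 CPM in GF and 162 to 252 in SPF libraries.

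Gsn, which severs and caps actin filaments, rose too. It was at 329, 298 and 331 CPM in GF mice, 72.6, 48.5 and 93.0 in SPF mice and 80.1, 149 and 89.2 in CGF mice, with a log2 fold change to SPF of 2.05 ± 0.31 (adjusted p = 0.0232). In astrocytes Gsn was at 16.4 to 27.8 CPM in GF and 16.6 to 23.6 in SPF, a log2 fold change of 0.21 ± 0.24 (adjusted p = 0.542). The difference between members and astrocytes, fitted with the mouse as a block, was 1.83 ± 0.41 and did not pass (adjusted p = 0.217 by edgeR over 12546 genes), nor did it without the 22 members (1.80 ± 0.42, adjusted p = 0.108). In the other nuclei as a whole, Gsn lay between 9.63 and 18.4 CPM in every library.

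Upp2, a uridine phosphorylase, fell. It was at 69.3, 62.1 and 89.7 CPM in GF, 327, 291 and 380 in SPF and 240, 265 and 188 in CGF, with no overlap between GF and the other mice and a log2 fold change to SPF of -2.19 ± 0.30 (adjusted p = 0.0232). All other nuclei had it at 92.7 to 123 CPM in GF and 267 to 410 in SPF, and the log2 fold change in astrocytes was -1.79 ± 0.17.

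CGF members differed from SPF members in 1 gene, 0.0212% of those tested. Mid1, a ubiquitin ligase of microtubules on chromosome X, was at 486, 934 and 709 CPM in CGF mice, 109, 154 and 117 in SPF mice and 260, 257 and 338 in GF mice. The 3 groups did not overlap, with CGF highest and SPF lowest, and the log2 fold change of CGF to SPF was 2.48 ± 0.32 (adjusted p = 0.0144). GF to SPF was 1.18 ± 0.32 and did not pass (adjusted p = 0.201). In the other nuclei Mid1 had the same order of groups, with 227 to 439 CPM in CGF, 124 to 177 in GF and 38.7 to 65.8 in SPF. Without the 22 members 2 genes passed (0.054%), Mid1 among them (2.50 ± 0.31, adjusted p = 0.00223 by edgeR).

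GF against CGF gave 0 genes with all members by edgeR (0.0%), with 474 at an unadjusted p under 0.05 and 33 by DESeq2. Without the 22 members it gave 90 higher and 25 lower (3.1%). GF is shared by this comparison and by that with SPF. Leaving out GF mouse 7 alone raised the calls to 98 against SPF and 110 against CGF, and leaving out mouse 5 or 6 gave 0 in both. Against SPF the count was also 0 without SPF mouse 31 or 32 and without CGF mouse 17 or 19, 2 without CGF mouse 18 and 3 without SPF mouse 30. The call for Mid1 was lost without SPF mouse 31 or 32 and without CGF mouse 18 or 19.

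**Figure D4:**
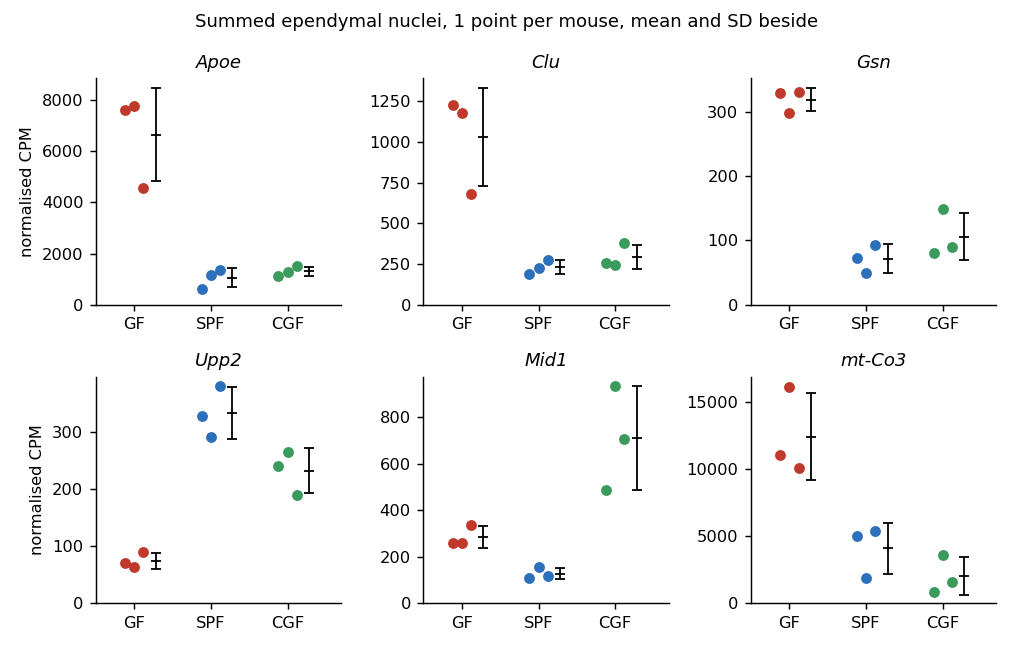
Normalised CPM of 5 genes past the threshold and of mt-Co3 in the summed members of each mouse (1 point per mouse, linear axes from 0), with the group mean and SD beside them. GF mice lie above SPF and CGF mice for Apoe, Clu, Gsn and mt-Co3 and below them for Upp2, and CGF mice are highest for Mid1.

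Some genes missed the threshold against SPF over all members and passed without the 22, and a pair of them were low outside the members. Values by mouse are over all members, and fold changes without the 22. The limit that left out the 22 was chosen after the data were seen. Stoml3, a stomatin-like membrane protein, was at 191, 104 and 96.6 CPM in GF, 18.2, 40.5 and 28.3 in SPF and 30.1, 31.8 and 49.6 in CGF, with at most 1.15 CPM in the other nuclei of any library and a log2 fold change to SPF of 1.99 ± 0.42 (adjusted p = 0.0351 by edgeR). The gene 1700007K13Rik was at 173, 244 and 172 CPM in GF, 45.4, 40.5 and 62.7 in SPF and 40.1, 95.5 and 79.3 in CGF (1.80 ± 0.33, adjusted p = 0.0193), with at most 2.83 CPM in the other nuclei of any library and 14.6 in the choroid plexus gate. Serpinh1, a collagen chaperone, was at 121, 120 and 89.7 CPM in GF, 18.2, 24.3 and 26.3 in SPF and 15.0, 31.8 and 49.6 in CGF (2.21 ± 0.45, adjusted p = 0.0311), and astrocytes had it at 17.7 to 32.4 CPM in GF and 7.68 to 9.98 in SPF. In all 3 genes the GF mice lay above every other mouse. Stoml3 and Serpinh1 were at most 49.6 CPM in every SPF and CGF mouse. Both could therefore enter the test through the GF mice, where they were high, and the lack of overlap is a description only. Stoml3 and 1700007K13Rik are in none of the ciliary lists used here, so the counts for those lists do not cover them.

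Hspa5, the main chaperone of the endoplasmic reticulum, was at 953, 422 and 372 CPM in GF, 63.5, 186 and 146 in SPF and 90.2, 63.7 and 154 in CGF (2.05 ± 0.35, adjusted p = 0.00961). Ppib, a folding enzyme of the same compartment, was at 173, 306 and 159 CPM in GF against 60.7 to 89.0 in SPF (1.75 ± 0.35, adjusted p = 0.0302). Both were also higher in GF astrocytes, by 1.15 ± 0.17 and 1.39 ± 0.11, and in the other nuclei, where Ppib was at 141 to 167 CPM in GF and 60.9 to 67.4 in SPF.

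Trpm3, an ion channel gene, was among the 12 genes that fell without the 22 members. With all members it was at 121, 174 and 662 CPM in GF mice 5, 6 and 7, 1434, 1181 and 1699 in SPF and 1367, 1273 and 1779 in CGF. GF mouse 7 lay nearest to the others, and the log2 fold change to SPF was -2.13 ± 0.51 with them (adjusted p = 0.165) and -2.95 ± 0.32 without them (adjusted p = 0.00019). In astrocytes it was -0.85 ± 0.12, with 1148 to 1514 CPM in GF and 2239 to 2517 in SPF. The test of that difference gave -1.60 ± 0.49 over all members (adjusted p = 0.734) and -2.19 ± 0.39 without the 22 (adjusted p = 0.00175 by edgeR). All other nuclei had Trpm3 at 749 to 1177 CPM in GF and 1290 to 1950 in SPF, and the choroid plexus gate at 20950. The difference from the choroid plexus gate was -2.37 ± 0.54 without the 22 and did not pass (adjusted p = 0.301 by edgeR).

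Lists of genes were described by counts and medians. Of 16 glial genes tested, 2 rose in GF against SPF (Apoe and Clu, where 0.0636% of all genes tested rose), 0 fell and 14 did not pass, with a median log2 fold change of 0.85. With the 22 members left out 3 of 15 rose, where 0.729% of all genes tested rose. Of 3 astrocyte markers tested 0 passed, with a median of -0.41, and without the 22, where 0.324% of all genes tested fell, Gpc5 fell (-2.20 ± 0.49, adjusted p = 0.0478 by edgeR). The share of gated astrocytes among kept nuclei also differed by group, with GF between 5.57% and 6.86%, SPF between 9.34% and 11.4% and CGF between 11.4% and 12.4%, and its part in these values was not tested. Of the glial genes, GF lay above SPF without overlap for 6 and below for 3, against 8.59% and 6.68% of all genes. Of 95 genes of oxidative phosphorylation 34 had counts enough to test. Of these 0 passed, the median was 0.78, and 13 lay above SPF without overlap and 0 below. Summed over all 95 without TMM scaling, GF libraries had 3649 to 7150 CPM and SPF libraries 2313 to 3736, which overlap. Of 84 cytosolic ribosomal protein genes 13 had counts enough to test, with a median of 1.19, 0 past the threshold and 7 above. Summed over all 84, GF libraries had 1649 to 3517 CPM and SPF libraries 834 to 1608. A gene of low counts can enter the test through the group where it is high. The medians and counts of both lists therefore describe the tested genes only. In the 412 members of higher ciliary share 0 of both lists passed against SPF, and 3 of 26 and 2 of 7 rose against CGF, where 2.43% of all genes tested rose. In CGF against SPF these last medians were -0.04 and 0.00, with 0 genes past the threshold.

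Of the 11 mitochondrially encoded genes tested, 0 passed in any comparison with all members, while GF lay above SPF without overlap for 10 and above CGF for all 11, against 8.59% and 8.57% of all genes. mt-Co3 was at 11040, 16120 and 10080 CPM in GF, 5027, 1836 and 5341 in SPF and 806, 3608 and 1591 in CGF. Their median log2 fold change was 1.32 to SPF and 2.47 to CGF, and -1.16 for CGF against SPF. Without the 22 members all 11 were past the threshold against CGF, where 2.43% of all genes tested rose, and 0 against SPF. Nuclei with over 10% of their UMIs in these genes had been removed before, and the filters removed more nuclei in GF libraries. The counts and calls for this list are therefore a description of nuclei chosen in part by the same genes. The mitochondrial share of the other nuclei moved the same way between groups, and its part in these values was not tested.

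The 6 transcripts linked to ribosomal RNA repeats went the other way, at a median of -1.13 to SPF, 0 past the threshold with all members and 2 lower without the 22, against 0.324% of all genes. Gm42418 was at 607, 716 and 338 CPM in GF, 1361, 1869 and 2930 in SPF and 2119, 1517 and 2240 in CGF. Astrocytes gave close medians of GF against SPF for the same genes, 0.97 for oxidative phosphorylation, 1.31 for ribosomal proteins, 1.24 for mitochondrially encoded and -1.31 for the linked transcripts. There the sums were far deeper, and 3951 of 13643 genes (29.0%) passed.

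**Figure D5:**
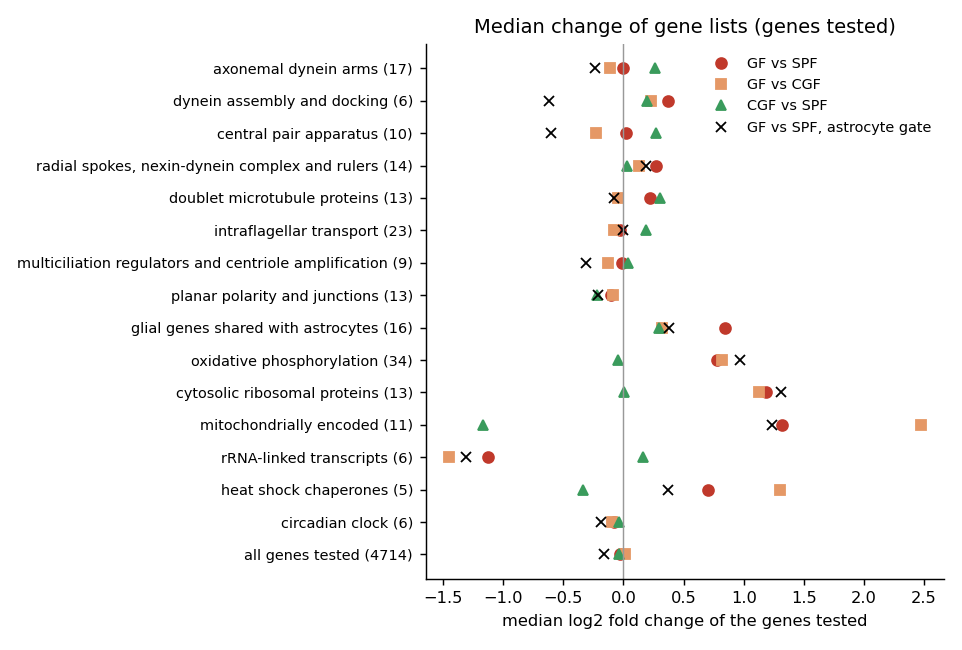
Median log2 fold change of the genes tested in each list (their number in brackets) in the members for the 3 comparisons, and for GF against SPF in the astrocyte gate. Ciliary lists reach at most 0.37 in members, and mitochondrially encoded genes lie at 1.32 (GF against SPF), 2.47 (GF against CGF) and -1.16 (CGF against SPF).

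Whether GF against SPF differed between members and other cells was tested directly, with the mouse as a block. Over all members no gene passed against astrocytes (0.0% of 12546, 567 at an unadjusted p under 0.05 by edgeR) or against the choroid plexus gate (0.0% of 7382, 333 at an unadjusted p under 0.05), for which GF mouse 5 and CGF mouse 18 had too few nuclei and were left out. When the 22 members were left out, 4 genes passed against astrocytes (0.0312% of 12805) and 0 against the choroid plexus gate (0.0% of 7519, 397 at an unadjusted p under 0.05). Beside Trpm3 these were Gm48747, Hspa4l and Efemp1. Gm48747 fell in members (-2.16 ± 0.45, adjusted p = 0.0344) and was at 0.32 ± 0.18 in astrocytes, a difference of -2.53 ± 0.45 (adjusted p = 0.00175). Over all members it was at 52.0, 49.7 and 41.4 CPM in GF mice, 199.6, 154 and 231 in SPF mice and 45.1, 106 and 24.8 in CGF mice, so SPF lay above both other groups, and GF and CGF overlapped. The log2 fold change over all members was -1.94 ± 0.41 for CGF against SPF (adjusted p = 0.458 by edgeR) and -0.12 ± 0.50 for GF against CGF (adjusted p = 0.989). Hspa4l, a heat shock protein gene, rose in members (1.21 ± 0.27, adjusted p = 0.048) and fell in astrocytes (-0.41 ± 0.13, adjusted p = 0.0293), a difference of 1.55 ± 0.33 (adjusted p = 0.0324). Over all members Hspa4l was at 381, 488.5 and 379 CPM in GF mice, 172, 129 and 224.5 in SPF mice and 160, 223 and 223 in CGF mice, so GF lay above all others. Efemp1, of the extracellular matrix, had no UMI in the members of any SPF mouse or of GF mouse 5 and was at 78.7 and 110 CPM in GF mice 6 and 7 and at 140, 63.7 and 4.96 in CGF mice. Its call sets counts against 0 (adjusted p = 0.00715), did not pass the filter on low counts in the fit of these members alone, and is given with no fold and no direction.

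The test was simulated against astrocytes on the 4714 genes tested in members, fewer than the 12546 of the test itself. There it recovered 30% of genes changed 4-fold and 1% of those changed 2-fold.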

How the data were processed

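Single-nucleus RNA was measured by droplet sequencing in Hip of 9 mice. The authors deposited raw UMI counts per gene and nucleus, 1 matrix per library, written by Cell Ranger (3.1.0 per the file headers) on mm10 after read filtering with fastp; whether reads were counted by strand or in introns is not given in the sources used here. Of 72226 barcodes, 828 fell short of 200 genes or exceeded 10% mitochondrial UMIs and were dropped. Cfap299 was matched by its Ensembl identifier. The members and lists were chosen with earlier results of these data known. Genes were named by rule: the genes of the member rule, up to 6 per list with the highest CPM in members, the 15 with the largest ratio to other nuclei, and, among genes past the threshold whose groups did not overlap, the 8 largest rises and falls of GF against SPF and 3 of each other comparison, also without the 22 members of low ciliary share. Dnah5, Dnah8, Dnah10, Dnah17, Rsph1, Ccdc39, Ccdc40, Tekt1, Myb, Deup1 and other list genes beyond these were chosen after their values were seen. Astrocytes and choroid plexus nuclei were gated like members (at least 6 UMIs, at least 2 times those of opposing genes).

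Counts were summed per mouse and tested with edgeR 4.0.16 (quasi-likelihood, filterByExpr, TMM) in R 4.3.3, with Benjamini-Hochberg adjustment at 0.05. DESeq2 1.42.0 was an alternative, with other limits of the rule, other filters and each mouse left out. Values per library were compared by exact permutation tests over all arrangements (numpy 2.4.6), and binomial intervals were exact (scipy 1.17.1). Differences between cell populations were fitted with the mouse as a block, since both sums came from the same mouse. The test was checked on simulated counts for 4714 genes, with 3 false calls. Libraries of under 5 nuclei in a population were left out of its fit. Replicates are separate mice.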

Additional observations from a re-analysis of the deposited data

Results flagged for a closer look

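The rule also held for 6 nuclei in the libraries of the prefrontal cortex, a tissue the comparisons above do not use and which holds little ventricular wall. They were 5 of 24567 kept nuclei in GF (0.0204%, 95% exact binomial interval 0.00661% to 0.0475%), 1 of 19948 in SPF (0.00501%) and 0 of 22087 in CGF, where a count of 0 allows a share of up to 0.0136% taken as 3 counts of the total (95% exact binomial upper limit 0.0167%). The GF nuclei came from mouse 6 (3) and mouse 7 (2), and the SPF nucleus from mouse 30. The intervals pool the nuclei of the 3 mice of a group, so they cover counting error and leave out variation between mice. The difference between groups was not tested.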

How the results depend on the processing

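Counts of genes past the threshold moved with the choice of members and the filter. GF against SPF (4 genes) gave 11 by DESeq2, 127 with no filter on low counts, 33 with at least 10 UMIs of the 5 genes, 0 with at least 4, 115 in members with no opposing UMI, 2 with sums thinned to the smallest, 39 with at least 1% ciliary UMIs, 0 in a fit of those 6 mice alone, and 0 to 98 with 1 mouse left out. CGF against SPF (1 gene) gave 37 with no filter, 0 with at least 4 UMIs, 2 without Cfap299, 2 with at least 1% ciliary UMIs and 0 to 2 with 1 mouse left out. GF against CGF (0 genes) gave 33 by DESeq2, 76 with no filter, 81 with at least 10 UMIs, 69 with no opposing UMI, 21 without Cfap299, 115 with at least 1% ciliary UMIs and 0 to 110 with 1 mouse left out. The limits of 1% and the rule without Cfap299 were chosen after seeing the data. The cause of these moves was not tested.

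The difference from astrocytes (0 genes) gave 17 with no filter, 7 with at least 10 UMIs, 15 with no opposing UMI, 4 with at least 1% ciliary UMIs and 0 to 11 with 1 mouse left out, and that from choroid plexus (0 genes) gave 5, 8 with no opposing UMI and 0 to 0. With no replicate block, the mouse not being a term, both gave 0 genes (805 and 332 at an unadjusted p under 0.05 by edgeR).

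GF minus SPF turned sign for UMIs per member (356) at -1435 with at least 4 UMIs and -465 with no opposing UMI, for genes per member (56.3) at -358 and -250.0, and for the ciliary share (0.0454 percentage points) at -0.368 with at least 10 UMIs. With 1 mouse left out these ran from 23.8 to 833 UMIs, -97.2 to 254 genes and -0.387 to 0.395 points, and the share of members from -0.526 to 0.00385 points. No direction of these measures is therefore drawn. Apoe, Clu, Gsn, Upp2 and Mid1 kept their direction in all 19 alternatives run for each, and Apoe passed the threshold in 10 of them, Mid1 in 14 and the others in 9 each. Sums of 68666 UMIs in GF mouse 5 limit what can be detected.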
